A study of Mus musculus with 4 samples.

Results

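In the livers of 4 male aP2-SREBP-1c mice, the genes of apolipoproteins and of very low density lipoprotein (VLDL) assembly were examined. They comprised 9 of the 19938 genes that could be named on the arrays, namely Apoa1, Apoa2, Apoa4, Apoa5, Apob, Apoc3, Apoe, Apom and Mttp. Membership was set by gene symbol and not by measured values, and each of the 9 genes was represented by exactly 1 probe set. All mice carried the transgene C57Bl6-TgN aP2-HA-hSREBP-1c-NT, an HA-tagged, transcriptionally active N-terminal part of human SREBP-1c. The aP2 promoter directs the transgene to adipocytes, it is not expressed in the liver, and the animals lack adipose tissue. They received regular chow and, by their labels, were 24 weeks old. The methods give a wider age span. Each array was hybridized with material from 150 ng of total RNA from 1 liver. C57Bl6 and alb-SREBP-1c livers were not analysed here, so that levels and their spread between mice are given, without comparison of phenotypes and without p-values.

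VLDL is built in the hepatocyte around a single molecule of apolipoprotein B, onto which the microsomal triglyceride transfer protein loads lipid in the endoplasmic reticulum. The small exchangeable apolipoproteins join the particle later, move between VLDL and high density lipoprotein (HDL) in plasma, and decide how fast the particle is lipolysed and taken up. Apoa1, Apoc3, Apoa4 and Apoa5 lie next to each other on mouse chromosome 9, while Apoa2 lies on chromosome 1, Mttp on 3, Apoe on 7, Apob on 12 and Apom on 17 (RefSeq, assembly GRCm38.p6).

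Only Apoa4 differed by more than 1.5-fold between the mice. Its neighbour Apoa5, which varied only 1.21-fold, was lowest in the mice in which Apoa4 was highest. The 250 bases before the RefSeq start site of both genes are therefore shown (GRCm38.p6, plus strand). They lie at chr9:46240594-46240843 for Apoa4 and chr9:46268358-46268607 for the more upstream of the start sites of Apoa5. Capitals mark matches to the letters TATAAA (the box bound by the TATA-binding protein) or CAAAGGTCA (core of an HNF4A direct repeat), searched on both strands.
Apoa4: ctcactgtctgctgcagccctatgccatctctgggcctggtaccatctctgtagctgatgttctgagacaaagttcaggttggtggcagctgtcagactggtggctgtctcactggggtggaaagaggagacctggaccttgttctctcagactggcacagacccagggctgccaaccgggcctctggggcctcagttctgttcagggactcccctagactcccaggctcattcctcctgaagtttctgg
Apoa5: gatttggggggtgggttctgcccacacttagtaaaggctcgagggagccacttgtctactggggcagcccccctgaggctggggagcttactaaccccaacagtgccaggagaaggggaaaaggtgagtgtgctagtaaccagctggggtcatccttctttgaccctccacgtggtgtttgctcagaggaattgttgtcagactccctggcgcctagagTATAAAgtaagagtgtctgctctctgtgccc
Apoa5 held TATAAA at positions -31 to -26 from its start, and the Apoa4 window held neither motif. Of the 9 genes, 8 had promoters in the table, in 12 windows. TATAAA was found in 5 of these 12 windows, those of Apoa2, Apoa5, Apob and Apoe, against 12.4% of all 32851 windows. Of the 5, 2 are overlapping windows of Apoa5 that share 1 site, at -56 to -51 from the other start. TATAAA lay at -212 to -207 in Apoa2, at -60 to -55 in Apob and at -96 to -91 in Apoe. In Apoe it overlapped its own match on the other strand. Other start sites of Apoa2 and Apoe had no TATAAA in their windows, among them the most upstream start of each. CAAAGGTCA was found in 0 of the 8 genes and in 0.426% of all windows. A match or its absence describes these letters in this window and no binding of a factor.

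The values are log2 expression values, and a difference of 1 corresponds to a 2-fold change. A gene was taken as above background when it exceeded, on every array, the 95th percentile of olfactory and vomeronasal receptor probe sets (5.33 to 5.52). All 9 genes did so, as did 12264 of the 19938 genes. Mouse 1 had low values among highly expressed genes and high values among weakly expressed ones. When these 12264 genes were divided by mean expression into 10 classes, the highest class held all 9 genes except Apom. In it the median deviation from the other 3 mice was -0.23, 0.069, 0.13 and 0.034 for mice 1 to 4. In the lowest class this deviation was 0.13, -0.015, -0.062 and -0.068. Acinar transcripts of the pancreas were uneven as well, with Cpa1 at 9.02, 6.31, 6.69 and 8.49. The part of either in the values below was not tested beyond the other scalings given. In bulk tissue, fewer cells of a type and less RNA per cell cannot be told apart.

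Apolipoprotein A-IV is a secreted, lipid-binding protein of chylomicrons, VLDL and HDL whose hepatic gene is known to be induced in fatty liver. Apoa4 (probe set 10585010) was measured at 11.94, 12.82, 12.74 and 12.27 in mice 1 to 4. Mice 2 and 3 were high, mouse 1 was low, and mouse 4 lay between them. The highest and the lowest mouse differed by 0.88 on the log2 scale, a 1.83-fold range, and the mean was 12.44 ± 0.41 (SD, n = 4 mice). The SD was above that of 98.3% of all genes above background and of 97.0% of those in the highest expression class. Without mouse 1 the range was 0.55 and no longer exceeded 1.5-fold (0.585). After quantile normalization of the 4 arrays it was 0.73, and mouse 1 was still lowest and mouse 2 highest. Mouse 1 deviated from the other mice by -0.67. After subtraction of the median deviation in the same expression class, an adjustment chosen after seeing the data, this was -0.44. The 95% confidence interval of the mean was 12.15 to 12.73 with a moderated variance (limma). From the 4 values of the gene alone it was wider, 11.78 to 13.10.

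Apolipoprotein A-V raises lipolysis of triglyceride-rich particles by lipoprotein lipase. Apoa5 (probe set 10585015) was measured at 11.17, 11.02, 11.09 and 11.30 in mice 1 to 4, with a mean of 11.14 ± 0.12 (SD, n = 4). Mouse 4 was highest and mouse 2 lowest, a 1.21-fold range. The SD was above that of only 33.0% of all genes above background and 35.7% of those in the same expression class. Mice 2 and 3 also had the lowest values after quantile normalization, whereas with median-centred arrays mouse 3 (11.11) and mouse 1 (11.14) lay close together.

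Apolipoprotein C-III inhibits this lipolysis and the hepatic uptake of remnants. Apoc3 (probe set 10593169) was measured at 13.44, 13.60, 13.60 and 13.52, with a mean of 13.54 ± 0.077 (SD, n = 4). Mouse 1 was lowest, and the range was 1.12-fold. Apolipoprotein A-I is the main structural protein of HDL, and Apoa1 (probe set 10585005) was measured at 13.70, 13.82, 13.89 and 13.68, with a mean of 13.77 ± 0.10 (SD, n = 4). Mouse 3 was highest under each scaling. The lowest was mouse 4 as deposited, mouse 1 with median-centred arrays and mouse 2 after quantile normalization.

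Among the 4 neighbouring genes, Apoa1 and Apoc3 both varied little and so differed little from each other. As deposited, Apoa1 was lowest in mouse 4 and Apoc3 in mouse 1. Apoa4 and Apoa5 ran apart from them and from each other. The difference of Apoa4 from its own mean less that of Apoa1 was -0.43, 0.33, 0.18 and -0.078 in mice 1 to 4, a 1.69-fold spread. Against Apoc3 the spread was 1.64-fold. Apoa1 and Apoc3 lay near the top of the array range, where values can be compressed, and its part in these 2 spreads was not tested. Against Apoa5, which lay at least 3.23 log2 units below the top, the spread was 2.04-fold. This spread alone shows unequal change of the signals of 2 probe sets, not which of both genes changed. By their own ranges as deposited, Apoa4 varied more (1.83-fold) than Apoa5 (1.21-fold).

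**Figure D1:**
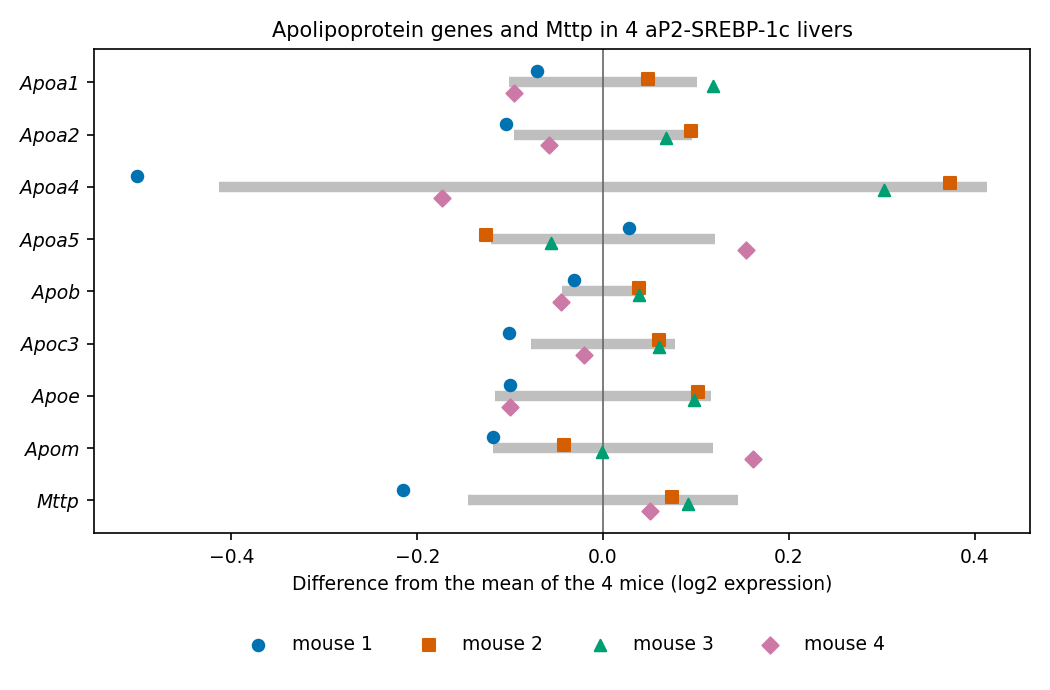
Log2 expression of the 9 genes in each of 4 aP2-SREBP-1c mice, plotted as deviation from the 4-mouse average of that gene (x axis, log2). Symbols stand for mice and grey bars for ± SD. Apoa4 has the widest spread, with mouse 1 at -0.50 and mouse 2 at 0.37, and Apob the narrowest.

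Apolipoprotein B is the obligatory scaffold of VLDL. Apob (probe set 10394394) was measured at 13.29, 13.36, 13.36 and 13.27 in mice 1 to 4. All mice were close together, with identical values in mice 2 and 3, a mean of 13.32 ± 0.044 (SD, n = 4) and a 1.06-fold range. Only 2.85% of all genes above background, and 3.67% of those in the same expression class, had a smaller SD. Which mouse was lowest depended on the scaling, namely mouse 4 with the deposited values, mouse 1 with median-centred arrays, and mice 3 and 4 alike after quantile normalization.

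Mttp, which encodes the lipid-loading subunit of the transfer protein, was measured at 10.70, 10.99, 11.00 and 10.96 (probe set 10502375). Mouse 1 stood apart below the other 3, which lay within 0.041 of each other. The mean was 10.91 ± 0.14 (SD, n = 4) and the range 1.24-fold. Mouse 1 deviated from the other mice by -0.29, and by -0.055 after subtraction of the median deviation in the same expression class. After quantile normalization it deviated by -0.11. Mttp was the 1 gene of the 9 in which a single mouse stood apart by Dixon's criterion (95% level), which 5.75% of all genes above background met. P4hb, protein disulfide isomerase and the other subunit of the transfer protein, was measured at 12.04, 12.39, 12.33 and 12.16, again lowest in mouse 1.

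Apolipoprotein E is the ligand by which remnants are taken up by the liver. Apoe (probe set 10560624) was measured at 14.10, 14.30, 14.30 and 14.10. Mice 1 and 4 had identical values below mice 2 and 3, and this split was still present after quantile normalization. The mean was 14.20 ± 0.12 (SD, n = 4) and the range 1.15-fold. Apoa2, the gene of the second major HDL protein, gave a like picture with 13.99, 14.18, 14.16 and 14.03 (probe set 10351546). Its mean was 14.09 ± 0.096 (SD, n = 4) and its range 1.15-fold.

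Apolipoprotein M carries sphingosine-1-phosphate on HDL. Apom (probe set 10450444) was measured at 8.04, 8.11, 8.15 and 8.32, with a mean of 8.16 ± 0.12 (SD, n = 4). Mouse 4 was highest under each scaling, and the range was 1.21-fold. Mouse 1 was lowest with the deposited values and with median-centred arrays, but mouse 3 was lowest after quantile normalization.

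Apoa4 was thus 1 of the 9 genes (11.1%) with a range over 1.5-fold, against 12.9% of all genes above background. The median SD of the 9 genes was 0.12, against 0.15 over all genes above background. The lowest value fell in mouse 1 for 6 of the 9 genes, including Apoe, where mice 1 and 4 were alike. Of all genes above background, 46.1% had their lowest value in mouse 1, as did 78.1% of those in the highest expression class. With median-centred arrays it was 8 of the 9 genes. These arrays were centred on the median of all named genes, highest in mouse 1 (6.06, against 6.00 to 6.05 in the other mice). Median-centring thus lowered mouse 1 against the other mice by construction. After quantile normalization, 4 of the 9 genes were lowest in mouse 1, including a tie of Apoa2 with mouse 4. Over the 9 genes, mouse 1 deviated by a median of -0.13 as deposited and -0.048 after quantile normalization.

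**Figure D2:**
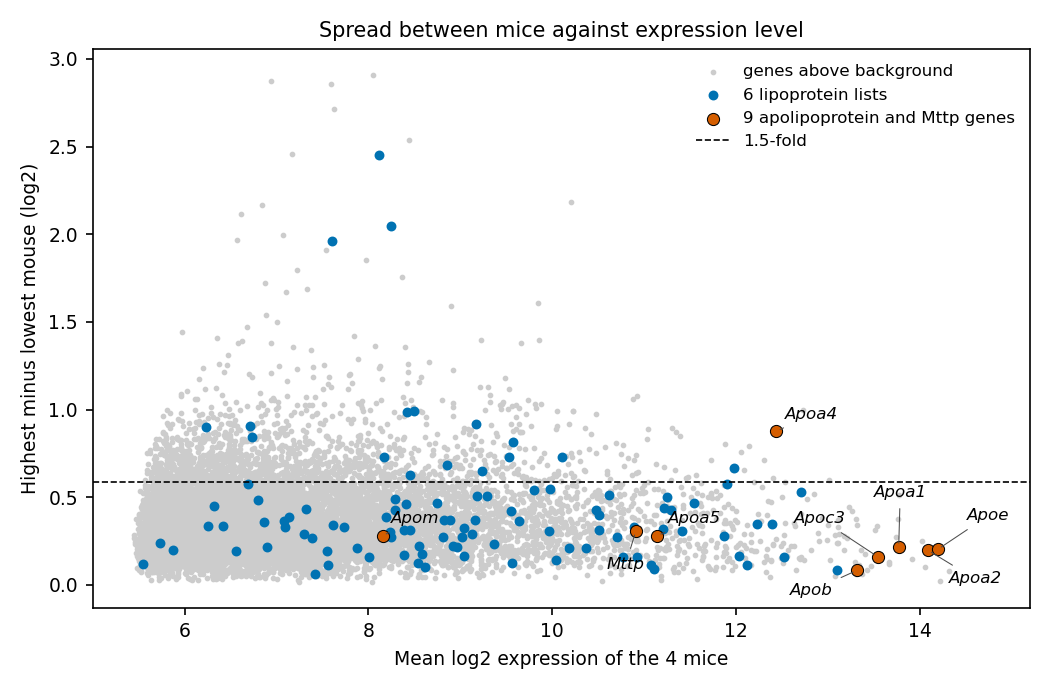
Highest minus lowest mouse (y axis, log2) against the mean of the 4 mice (x axis, log2 expression) for genes above background (grey), genes of 6 lipoprotein lists (blue) and the 9 genes (orange, labelled). The dashed line marks 1.5-fold. Apoa4 is the one labelled gene above it, at 0.88.

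Values close to the top of the array range can be compressed, which limits what a spread can show. The highest value of each array lay between 14.48 and 14.53. Apoe lay 0.20 to 0.43 below the highest value of its array, Apoa2 0.33 to 0.49 and Apoa1 0.61 to 0.85. These 3 genes were within 1 log2 unit of it on every array, as were 12 of the 19938 named genes in all (0.0602%). Apoc3, at 0.90 to 1.03, was just outside this limit in mice 1 and 4. Apob lay 1.14 to 1.25 and Apoa4 1.70 to 2.54 below the top, while Apoa5, Mttp and Apom were at least 3.23 below it. Whether the small ranges of Apoe, Apoa2, Apoa1, Apoc3 and Apob are compressed was not tested. Identical values in 2 mice were seen for Apob and Apoe, the only 2 of the 200 genes with the highest means to show any, and for 34 of all named genes (0.171%).

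**Figure D3:**
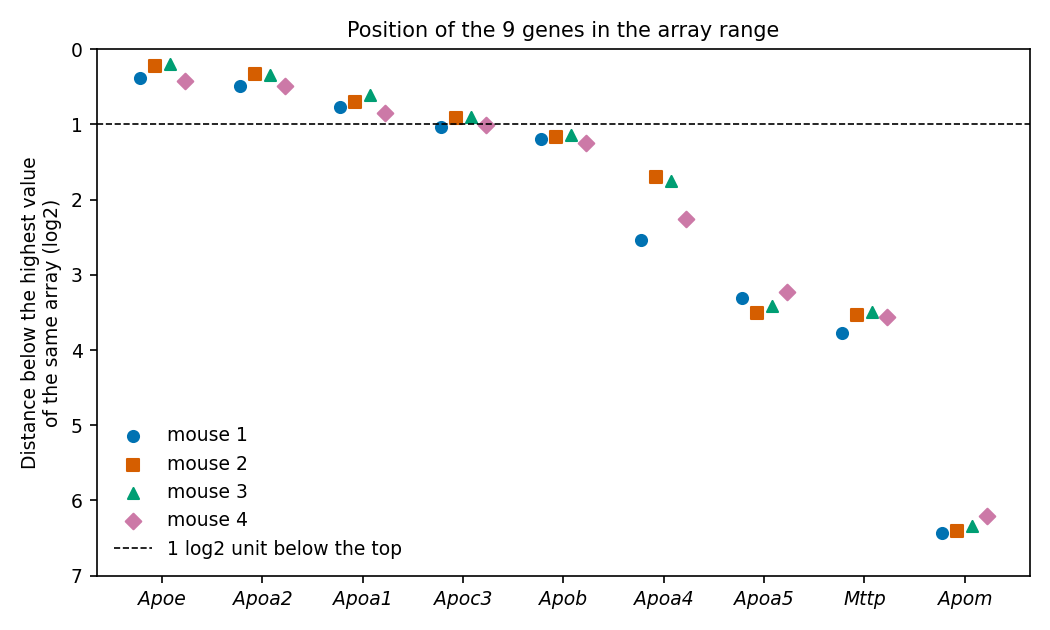
Distance of each of the 9 genes below the highest value of the same array (y axis, log2, top of the range at 0) in each of 4 mice (symbols). The dashed line marks 1 log2 unit. Apoe, Apoa2 and Apoa1 stay above the line in all mice, and Apom lies at least 6.21 below the top. Positions of different genes belong to different probe sets and do not rank their expression.

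The genes whose values ran most like those of a given gene were sought among all genes above background, as the root mean square difference of their values, each taken from its own mean, over the 4 mice. For Apoa4 these were Susd4 (0.024), Cpq (0.025) and Cd52 (0.033), where the values of Apoa4 varied by 0.36 about their mean on the same measure. Susd4 was measured at 6.19, 7.07, 7.01 and 6.58 in mice 1 to 4. For Mttp these were Psma3, Spryd4 and Poc1b (0.0065 each), and for Apoa5 they were Asap2 (0.0061), Arfgef3 (0.0097) and Pde6d (0.011). The values of Mttp varied by 0.13 about their mean and those of Apoa5 by 0.10. With 4 mice and 12264 genes, such close matches are a description of these arrays. Among the 9 genes themselves, Apoa2 and Apoc3 (0.026), Apoa2 and Apoe (0.027) and Apoa1 and Apoe (0.032) were closest, and Apoa4 and Apoa5 (0.44) farthest apart. The measure is not scaled to the spread of a gene, so that genes with small ranges lie close together by it.

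Of 115 further genes in 6 lists of lipoprotein metabolism, 106 were measured under their own symbol, 102 were above background and 17 of these (16.7%) differed by more than 1.5-fold, against 12.9% of all genes. For 15 of the 17 genes the lowest value was that of mouse 1, and the exceptions Cebpa and Onecut1 were lowest in mouse 2. Without mouse 1, 3 of the 102 genes exceeded 1.5-fold, and after quantile normalization 11 did.

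Among other apolipoproteins, 3 of 10 genes above background exceeded 1.5-fold, all of them serum amyloid A genes, which encode acute phase proteins carried on HDL. Saa2 was measured at 6.65, 8.85, 9.10 and 7.85 in mice 1 to 4, a 5.47-fold range. Saa1 was measured at 6.43, 8.15, 8.40 and 7.46, a 3.90-fold range. Both were high in mice 2 and 3 and lowest in mouse 1, and each still exceeded 1.5-fold without mouse 1. Saa3 was measured at 5.58, 6.47, 6.48 and 6.41, and in mouse 1 it lay only just above the background limit of 5.52. The constitutive Saa4 varied 1.38-fold. Apoc1, next to Apoe on the chromosome, varied as little as Apob, with 13.07, 13.15, 13.12 and 13.08. Apoh varied 1.12-fold and Clu (apolipoprotein J) 1.12-fold.

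Of the list of VLDL assembly and export from the endoplasmic reticulum, 37 of 38 measured genes were above background and 5 exceeded 1.5-fold (13.5%), with a median SD of 0.17. All 5 were lowest in mouse 1. Tmem41b, a lipid scramblase of the endoplasmic reticulum, was measured at 7.70, 8.61, 8.69 and 8.68. With the mean of its probe sets its level was 7.16 in place of 8.42. The coat proteins Sar1b (11.57, 12.22, 12.23 and 11.91) and Sec23b (7.74, 8.34, 8.47 and 8.15) form the vesicles in which lipoproteins leave the endoplasmic reticulum. Pla2g12b, which is needed for lipid loading of VLDL, was measured at 8.79, 9.44, 9.38 and 9.34, and the carboxylesterase Ces1g at 9.66, 10.38, 10.39 and 10.01. After quantile normalization only Tmem41b of these 5 genes still exceeded 1.5-fold, and without mouse 1 none did. Tm6sf2, a gene of VLDL lipidation, varied 1.09-fold and Aadac, an esterase of the endoplasmic reticulum, 1.08-fold.

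In the list of HDL formation and remodelling, 1 of 12 genes exceeded 1.5-fold, namely Lipg, which encodes endothelial lipase (6.27, 7.11, 6.77 and 6.76). Lcat, whose product esterifies HDL cholesterol, was steady at 11.08 ± 0.053 (SD, n = 4), and the cholesterol exporter Abca1 was measured at 9.02 ± 0.13 (SD, n = 4). In the list of plasma triglyceride lipolysis, 2 of 7 genes exceeded 1.5-fold. Lpl, lipoprotein lipase, was measured at 6.15, 7.05, 7.00 and 6.64, and its maturation factor Lmf1 at 8.45, 9.07, 9.13 and 8.76. Of 14 receptor genes above background 1 did, namely the fatty acid translocase Cd36, at 9.11, 9.85, 9.92 and 9.41. The remnant receptor Lrp1 varied 1.11-fold.

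Of 25 transcription factors above background, 5 exceeded 1.5-fold. Ppara, a fatty acid sensor that controls apolipoprotein genes, was measured at 8.63, 9.44, 9.55 and 9.08, and the clock repressor Nr1d1 at 7.95, 8.64, 8.94 and 8.45. The hepatocyte homeobox gene Prox1 was measured at 8.05, 8.66, 8.67 and 8.42. These 3 genes were low in mouse 1. In contrast, Onecut1 was measured at 9.20, 7.16, 7.71 and 8.92, a 4.12-fold range, and Cebpa at 9.91, 9.18, 9.31 and 9.72, both high in mice 1 and 4. Onecut1 and Cebpa thus had their high values in the mice with high Cpa1, and a part of acinar tissue in them was not tested. Hnf4a, the main activator of apolipoprotein genes in hepatocytes, varied 1.34-fold (10.19, 10.60, 10.62 and 10.48), and Creb3l3, a known activator of Apoa4, 1.12-fold (8.93, 9.05, 9.09 and 9.10).

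**Figure D4:**
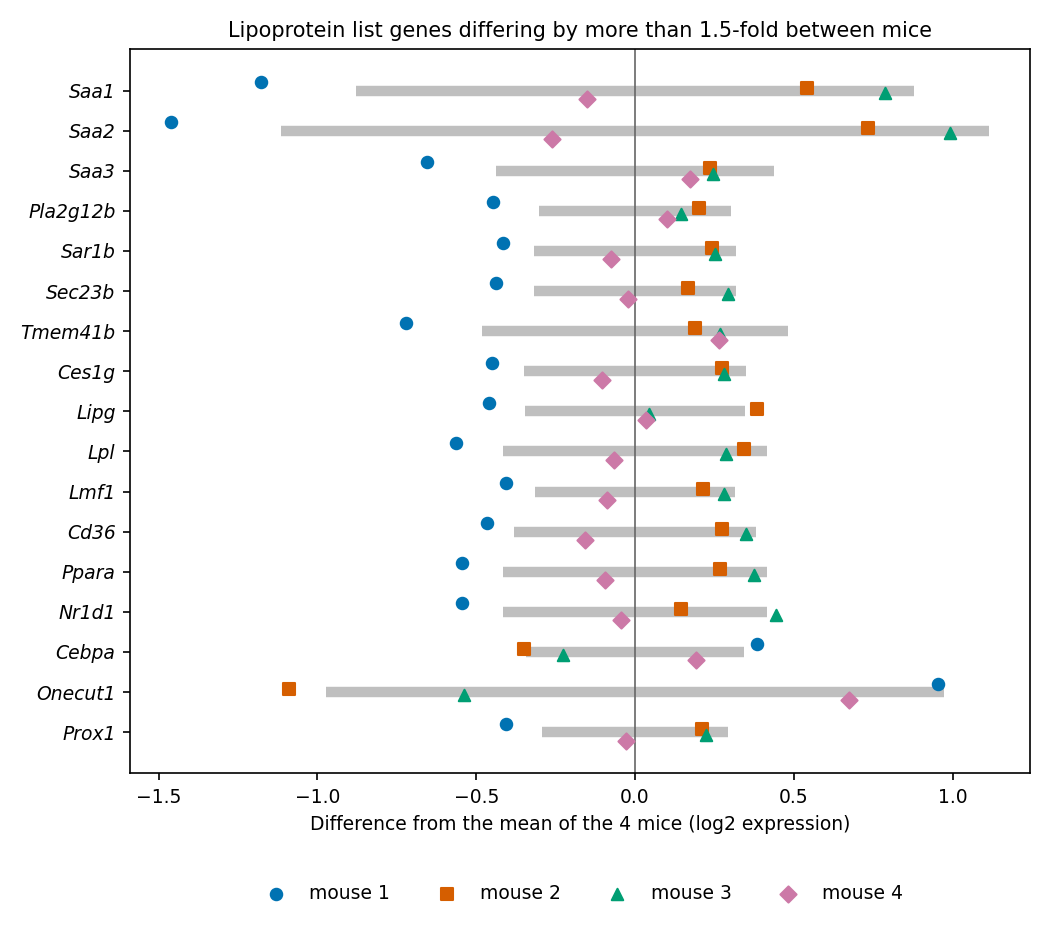
The 17 genes of the 6 lipoprotein lists that differed by more than 1.5-fold between mice, as the difference of each mouse (symbols) from the mean of the 4 mice (x axis, log2 expression). Grey bars give ± SD. Mouse 1 is lowest in all except Cebpa and Onecut1, and Saa2 has the widest range.

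Other cells can hold the same transcripts. All 10 measured hepatocyte genes were above background and none exceeded 1.5-fold, with a median SD of 0.058. Their mean level was 13.01 to 13.14 in the 4 mice, and Alb, at 14.29 to 14.37, was itself close to the top of the range. Ttr, at 0.40 to 0.48 below the top, and Ahsg, at 0.78 to 0.89, were close to it as well. Whether the small SD of the hepatocyte list is compressed was not tested. The most variable hepatocyte genes above background were Cyp2e1 (1.34-fold) and Tat (1.29-fold). Enterocytes also transcribe Apob, Mttp, Apoa1 and Apoa4. Of 13 enterocyte genes, 5 were above background. The mean level of the list was 6.15, 6.05, 5.99 and 5.98 in mice 1 to 4. It was taken over all 13 genes, including the 8 not above background, and mouse 1 had high values among weakly expressed genes in general. Among the enterocyte genes not above background were Vil1, Sis and Krt20, whereas Fabp2 (10.28 to 10.56) and Anpep (9.88 to 10.06) were above it. Among those above background, Lct (1.33-fold) and Cdx2 (1.29-fold) varied most, both close to the limit. Macrophages also transcribe Apoe. All 12 macrophage genes were above background, with a mean level of 7.73, 7.80, 7.81 and 7.86. Against 12.9% of all genes above background, 3 of the 12 exceeded 1.5-fold. Of these, Marco was measured at 7.06, 6.31, 6.14 and 6.63, highest in mouse 1, and C1qb at 8.00, 8.73, 8.78 and 8.49, lowest in mouse 1. For stellate cells, 9 of 10 genes were above background, and 3 of 9 exceeded 1.5-fold, against 12.9% of all genes above background. The mean level of all 10 genes was 7.30, 7.78, 7.75 and 7.47, lowest in mouse 1 as for Apoa4. Of the 9 stellate genes above background, 7 were lowest in mouse 1, as were 46.1% of all genes above background. The others were Rgs5, lowest in mouse 2 (7.13, 6.96, 7.10 and 7.25), and Des, lowest in mouse 4 (6.07, 6.02, 5.97 and 5.59). Lrat was measured at 8.29, 9.23, 9.33 and 8.84, and Dcn at 10.74, 11.58, 11.63 and 11.25. The part of stellate cells in the value of Apoa4 was not tested. The adipocyte genes Adipoq and Lep were not above background, whereas Cidec (1.55-fold) and Plin1 (1.95-fold) were, the latter by only 0.011 in mouse 3. Of the 12 measured acinar genes, 10 were above background, and all 10 exceeded 1.5-fold. This list was known from earlier results to differ between these mice, so that the count is no new result. The mean level of all 12 genes was 7.95, 5.99, 6.27 and 7.74, high in the mice in which Apoa4 was low. Ctrb1 varied 7.52-fold and Ctrl 7.23-fold. The part of acinar tissue in the value of Apoa4 was not tested.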

How the data were processed

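Liver RNA of 4 aP2-SREBP-1c mice was measured on Mouse Gene 1.0 ST arrays, 1 array per mouse. The authors deposited log2 expression values computed by RMA (background correction, quantile normalization and median polish). The submitters' processing notes name the Affymetrix Expression Console and RMA, and the labels also the Transcriptome Analysis Console. Which arrays were normalized together and the genome build are not given in the sources used here. All 4 columns were matched to a mouse, and 0 columns had no sample. No pair of arrays shared more than 25 identical values.

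Of 35556 probe sets, 21789 had 1 symbol, 1621 several and 12146 were unnamed here. Symbols were taken from the platform annotation, and 21698 were matched by gene identifier to RefSeq (GRCm38.p6). A gene with several probe sets was represented by that of highest mean. The background limit rested on 1210 receptor probe sets. Genes over it were fitted as 1 group (limma 3.58.1, R 4.3.3) for confidence intervals, and no test between groups was possible. Genes were counted when the range over the mice exceeded 1.5-fold. The number of arrays limits the precision. Steps were tested on simulated data. Python 3.11.15, numpy 2.4.6, pandas 2.3.3 and matplotlib 3.10.9 were used.

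The genes and lists were chosen with earlier results of these data known. Genes were named by rule, namely the 9 genes, list genes over 1.5-fold, the 2 marker genes above background with the largest SD in each list, and the 3 nearest profiles of the 3 genes with the largest SD. Alb, Adipoq, Lep and Cpa1 were fixed with them. The remaining genes were named after their values had been seen, for their role, their place in the array range or a course unlike that of their list. Alternatives comprised median-centred arrays, quantile normalization, the mean of all probe sets, background limits at the 90th and 99th percentile, a 2-fold range, all genes without a background limit, and leaving out each mouse in turn. Promoter sequences are those of RefSeq (GRCm38.p6), and 1 further motif searched in them is not reported here.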

Additional observations from a re-analysis of the deposited data

Results flagged for a closer look

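Of 111 genes examined, 10 had 1 mouse apart from the others by Dixon's criterion (95% level), against 5.75% of all genes above background and 1 in 20 groups by chance. Mouse 1 was the mouse apart in 9 of the 10 genes, and in 62.6% of all genes that met the criterion. Among the 9 apolipoprotein and VLDL genes it was Mttp, with a difference of -0.288 in mouse 1 from the mean of the other mice. Among genes of endoplasmic reticulum export and lipid loading, mouse 1 differed by -0.961 in Tmem41b, -0.597 in Pla2g12b, -0.435 in Sec24d, -0.314 in Arf1 and -0.331 in Ces3a. Among HDL genes it differed by -0.449 in Abcg1 and -0.191 in Pltp, and it differed by -0.874 in Saa3. After subtraction of the median deviation in the same expression class, mouse 1 deviated by -0.055 in Mttp, -0.081 in Arf1 and -0.099 in Ces3a, and the direction turned in Pltp (0.041). For the other 5 genes low in mouse 1 it ranged from -0.90 in Saa3 to -0.22 in Sec24d. Foxa3 was higher in mouse 4 by 0.316.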

How the results depend on the processing

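The levels of the 9 genes moved by less than their SD under each alternative run for them, in 36 of 36 cases by scaling, probe set or interval and in 36 of 36 with 1 mouse left out. Only quantile normalization could have moved a level that far. Each gene had 1 probe set, median-centring keeps the mean of the 4 mice, and the interval has the same mean. Leaving out 1 of 4 mice cannot shift a mean by its SD. Their ranges stayed on the same side of 1.5-fold in 27 of 27 cases by scaling or probe set and in 35 of 36 with 1 mouse left out. The exception was Apoa4, with a range of 0.55 to 0.88 when 1 mouse was left out, the lowest without mouse 1. Leaving out a mouse cannot widen a range, so that no other of the 9 genes could change side there. With 1 probe set per gene, the mean of all probe sets left each range unchanged by construction. The number of the 9 genes over 1.5-fold was 0 with a 2-fold range and 0 to 1 with 1 mouse left out. For the lipoprotein lists it was 11 after quantile normalization, 3 with a 2-fold range and 3 to 17 with 1 mouse left out. For all genes it was 138 with a 2-fold range, 3749 without a filter on low values and 344 to 1294 with 1 mouse left out. With 1 mouse left out, each of these 3 lowest counts was that without mouse 1. Of the 9 genes, 6 were among the highest 1% of named genes on every array, against 3 within 1 log2 unit of the top. Stricter or looser thresholds and fewer mice change these counts by construction. For quantile normalization the cause was not tested. Among list genes, 7 of 318 ranges lost and 4 of 318 gained 1.5-fold by scaling or probe set, 15 of 424 lost it with 1 mouse left out, and 2 of 318 levels moved, those of Tmem41b (7.16) and Ppargc1a (5.60) with the mean of all probe sets. Signal over background limits genes such as Saa3, and the top of the array range limits Apoe, Apoa2 and Apoa1. No paired analysis was possible because there was a single group of mice.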
